A study of Mus musculus with 40 samples.

Results

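The bone morphogenetic protein (BMP) genes described here are *Bmpr1b* and 9 other genes of the same pathway, namely the receptors *Bmpr1a*, *Bmpr2* and *Acvr1*, the ligands *Bmp4*, *Bmp6* and *Bmp7*, the transducer *Smad1* and the targets *Id3* and *Id4*. These 10 genes of the 47643 in the deposited tables were taken by symbol. *Bmpr1b* was chosen by its measured counts in these hippocampal libraries, where post-KD cohorts had more of it than pre-KD cohorts, so that difference is given as a description without a test, and the question was whether the other genes followed it.

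Germ-free Swiss Webster mice, an outbred wild-type stock, were colonized by gavage with stool that 1 of 10 donors gave before (pre-KD) or during (post-KD) a clinical ketogenic diet (KD). All recipients ate control chow, so no mouse received the diet itself, and the methods describe the mice as female and 6 to 8 weeks old. Hippocampus and frontal cortex were taken on day 4 after colonization, and each RNA-seq library was pooled from 6 mice of a cohort. Each donor thus gave 1 pre-KD and 1 post-KD cohort, and the 20 cohorts gave 40 libraries, 10 per region and condition. The libraries held 1140756 to 1947416 counted reads in the hippocampus and 1188447 to 2095352 in the frontal cortex. Levels are given as CPM, the reads of a gene scaled to the size of its library after TMM normalization, with the SD over 10 libraries.

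BMPs are secreted dimers that bring type I receptors (BMPR1A, BMPR1B and ACVR1) together with type II receptors such as BMPR2. The type I kinases phosphorylate SMAD1, SMAD5 and SMAD9, which enter the nucleus with SMAD4 and switch on targets, among them the Id genes, whose products block basic helix-loop-helix transcription factors. In the hippocampus the pathway is known for holding adult neural stem cells of the dentate gyrus in quiescence and for favouring the astrocyte fate, while secreted antagonists such as noggin oppose it.

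*Bmpr1b* lies on the minus strand of chromosome 3 (141837136 to 142169425, mm10). Windows before a start of *Bmpr1b* and of *Id4* are shown because the question was whether this receptor and a BMP target rose together. Capitals mark 6-letter elements known to bind SMAD proteins. Each run is the 250 bases before a RefSeq start on GRCm38.p6, the build also called mm10, written 5′ to 3′ on the strand of the gene, and overlaps no annotated exon.
Bmpr1b, chr3:141982265-141982514, minus strand: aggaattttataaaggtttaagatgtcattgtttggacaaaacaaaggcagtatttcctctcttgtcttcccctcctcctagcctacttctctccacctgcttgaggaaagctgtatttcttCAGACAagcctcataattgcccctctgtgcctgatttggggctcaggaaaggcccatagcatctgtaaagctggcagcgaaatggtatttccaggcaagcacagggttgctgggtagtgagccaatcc
Id4, chr13:48260866-48261115, plus strand: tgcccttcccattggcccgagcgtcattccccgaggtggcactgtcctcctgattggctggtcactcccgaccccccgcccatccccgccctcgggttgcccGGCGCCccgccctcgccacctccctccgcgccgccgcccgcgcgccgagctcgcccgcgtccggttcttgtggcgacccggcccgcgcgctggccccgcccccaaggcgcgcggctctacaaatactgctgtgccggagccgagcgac

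The elements searched were CAGACA, which reads TGTCTG on the other strand, and GGCGCC, which reads the same on both strands. Of 11 windows that RefSeq gave for 9 of the 10 genes, 1 held CAGACA and 3 held GGCGCC, against 17.1% and 9.59% of 32851 windows of the same length. RefSeq lists other starts for *Bmpr1b*, and their windows at chr3:141931589-141931838 and chr3:141931421-141931670 held neither element. All *Bmpr1b* windows, the printed one included, lie within the span of the gene given above. The windows of *Bmp4* and of *Id3*, the other target, also held neither element. A match is a description of the letters only, and gene-level counts do not show which start was used. The *Id4* window also lies within the spans of *A330033J07Rik* and *Gm49291*, RNA genes on the other strand.

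*Bmpr1b* was higher in post-KD hippocampus for nearly all donors, while in the frontal cortex the donors split evenly. In the hippocampus the pre-KD libraries lay between 0 and 15.3 CPM with a median of 2.14, and the post-KD libraries between 0 and 26.7 CPM with a median of 13.7. The means were 3.76 ± 4.35 and 15.1 ± 8.44 CPM (SD, n = 10), a log2 fold change of 1.98, and rest on 61 and 221 reads. For 9 of 10 donors the post-KD cohort was higher, and for donor 7 neither hippocampal library held a read. The ranges overlapped, with 5 of 10 post-KD libraries above the highest pre-KD library, which was that of donor 8 (15.3 CPM, next 5.73). Leaving out 1 donor at a time gave a log2 fold change between 1.85 and 2.49.

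In the frontal cortex *Bmpr1b* lay between 0 and 22.4 CPM pre-KD, with a median of 5.68, and between 0.539 and 31.2 CPM post-KD, with a median of 8.02. Its means were 8.30 ± 7.11 and 10.8 ± 9.79 CPM (SD, n = 10). The post-KD cohort was higher for 5 of 10 donors and lower for 5, and the log2 fold change of 0.36 ± 0.66 (SE) did not pass the test (edgeR quasi-likelihood, unadjusted p = 0.581, adjusted p = 0.998). Its sign turned without donor 1, whose post-KD library was the highest (-0.03). Ordered by mean, pre-KD hippocampus was lowest, followed by pre-KD cortex, post-KD cortex and post-KD hippocampus, and every gap between neighbours was smaller than the larger SD of the pair.

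**Figure D1:**
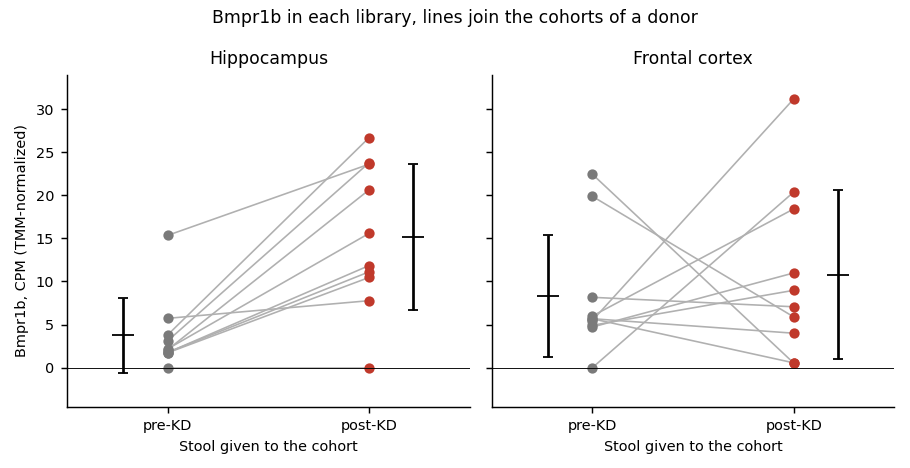
*Bmpr1b* in CPM (vertical axis) for pre-KD and post-KD cohorts in the hippocampus (left) and the frontal cortex (right). Points are libraries, lines join the cohorts of a donor, and bars show mean and SD (n = 10); the line rises for 9 of 10 donors in the hippocampus and for 5 of 10 in the frontal cortex.

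None of the other members passed the test in the hippocampus. Of the 8 others that could be tested, 0 had an unadjusted p under 0.05, where 10.1% of 17529 genes did, and 0 had an adjusted p under 0.05, where 0.0057% did (edgeR). The estimates were above 0 for 5 and below 0 for 3, with a median log2 fold change of 0.15 against -0.01 over all genes. Their upper 95% limits lay between 0.65 for *Bmpr2* and 1.87 for *Bmp7*, so rises of up to these sizes lie within the intervals. A test of the difference between *Bmpr1b* and another gene was not made, and in pooled tissue fewer cells of a type cannot be told apart from less RNA per cell. The share of all genes with an unadjusted p under 0.05 depended on the filter. With edgeR's filterByExpr, a stricter filter on reads, 113 genes were higher and 108 lower at that threshold, of 9509 in the hippocampus. In the frontal cortex 195 were higher and 212 lower, of 10033.

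*Bmpr1a*, the type I receptor closest in role to *Bmpr1b*, lay between 7.07 and 62.7 CPM in pre-KD hippocampus (median 24.5) and between 13.9 and 45.8 CPM post-KD (median 35.5). Post-KD was higher for 7 of 10 donors and 8 of 10 post-KD libraries lay above the pre-KD median, but all lay within the pre-KD range, and the log2 fold change was 0.20 (95% interval -0.67 to 1.06, unadjusted p = 0.652, edgeR). *Bmpr2*, the type II partner, had nearly equal medians of 113.7 and 114.5 CPM. Its post-KD range was wider, 78.7 to 218.5 against 68.7 to 144.9 CPM, with 4 of 10 post-KD libraries above every pre-KD library, and its log2 fold change was 0.25 (-0.16 to 0.65). *Bmpr2* was the most closely measured member, with 1847 and 2072 reads per condition.

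*Acvr1*, a type I receptor that also binds activins, had hippocampal medians of 10.7 CPM pre-KD and 7.22 CPM post-KD, with ranges of 0 to 83.7 and 0 to 28.2 CPM. A single pre-KD library, of donor 5, stood at 83.7 CPM above the next at 17.4. The log2 fold change of -0.57 (-2.09 to 0.95) became 0.18 without that donor.

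Among the ligands, *Bmp4*, which drives early patterning and adult stem cell quiescence, had hippocampal medians of 8.65 and 7.75 CPM. Its pre-KD range of 0 to 48.1 CPM enclosed the post-KD range of 0 to 24.6 CPM. Its log2 fold change of -0.49 (-2.11 to 1.13) became 0.14 without donor 7, whose pre-KD library was the highest. *Bmp7*, a ligand of the meninges and choroid plexus among other sources, had medians of 6.27 and 11.6 CPM, yet the pre-KD range (0 to 27.9) again enclosed the post-KD range (0 to 22.5), and the log2 fold change was 0.20 (-1.46 to 1.87). *Bmp6* had 0 reads in all 20 hippocampal libraries, which allows up to 0.0972 CPM at 3 reads over the 20 libraries.

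*Smad1*, which carries the receptor signal to the nucleus, lay between 4.01 and 57.5 CPM pre-KD and between 5.002 and 34.7 CPM post-KD in the hippocampus. Its medians of 17.2 and 17.7 CPM were close, and the log2 fold change was -0.38 (-1.52 to 0.77). *Id3*, a direct target of SMAD signalling, lay between 11.9 and 87.8 CPM pre-KD (median 23.9) and between 9.72 and 99.2 CPM post-KD (median 41.9). In 7 of 10 donors the post-KD library was the higher one, and the log2 fold change was 0.44 (-0.31 to 1.19, unadjusted p = 0.246, adjusted p = 0.970, edgeR). Donor 9 went the other way, and without that donor the log2 fold change was 0.83 (unadjusted p = 0.0351, adjusted p = 0.397), where the adjusted p over all alternatives ranged from 0.397 to 1.

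*Id4*, a target that also marks quiescent stem cells and astrocytes, lay between 0 and 23.3 CPM pre-KD (median 15.1) and between 3.48 and 42.1 CPM post-KD (median 6.32). The post-KD median was below the pre-KD median while the means were 12.4 ± 7.52 and 13.4 ± 13.2 CPM (SD, n = 10). The post-KD libraries of donors 9 and 7 stood at 42.1 and 29.1 CPM, and the pre-KD libraries of donors 7 and 10 at 0. Post-KD was lower for 6 of 10 donors. The log2 fold change of 0.10 (-1.40 to 1.60) turned to -0.22 with the donor as a block.

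**Figure D2:**
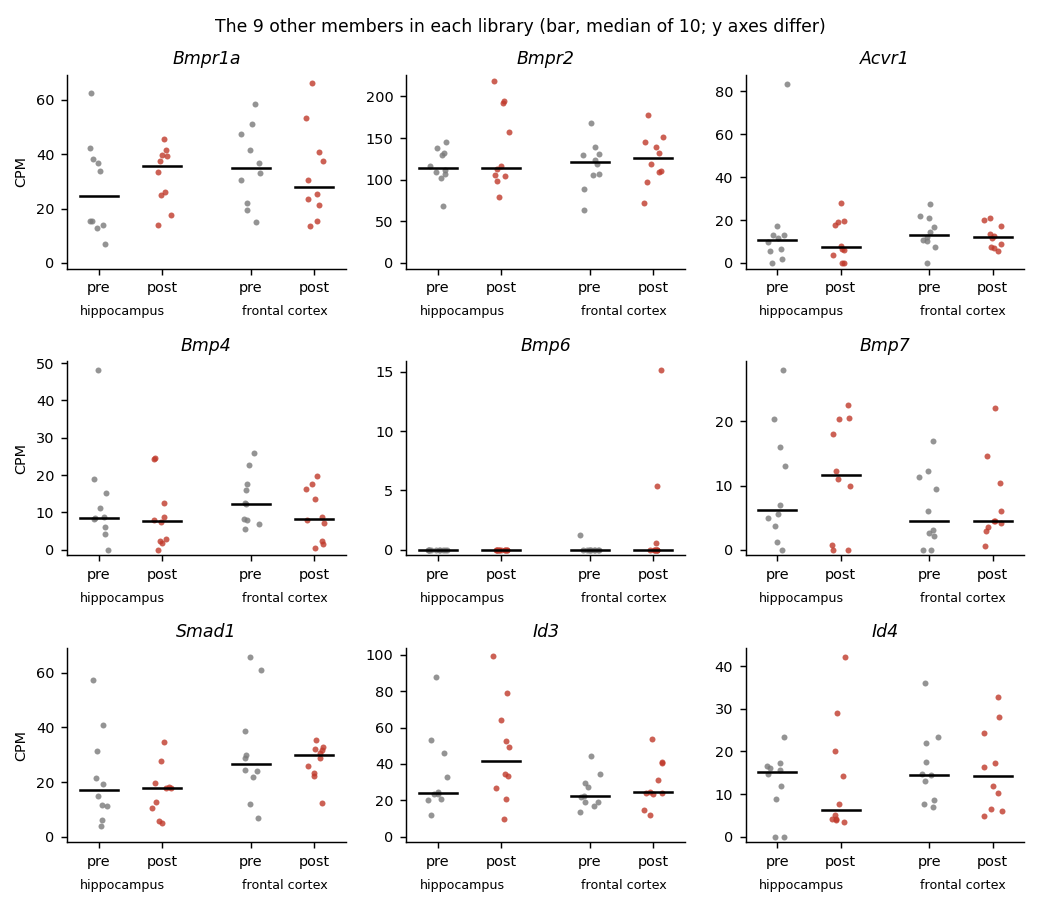
CPM (vertical axes, which differ between panels) of the 9 other members in each library, pre-KD and post-KD, in the hippocampus and the frontal cortex. Bars are medians of 10 libraries; pre-KD and post-KD libraries overlap in every panel, and *Bmp6* was read in 4 libraries only.

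In the frontal cortex 1 of 10 members, *Bmp6*, had an unadjusted p under 0.05, where 9.68% of 17873 genes did, and 0 had an adjusted p under 0.05, where 0.0056% did (edgeR). *Bmp6*, a ligand of liver iron control that is also made in brain, was read in 1 pre-KD library (2 reads) and in 3 post-KD libraries, at 15.1 CPM (28 reads, donor 3), 5.35 CPM (donor 9) and 0.57 CPM (donor 10). The depth-scaled ratio of 38 to 2 reads was 17.7 (exact 95% interval 4.57 to 151.3, counting error only). The edgeR test gave p = 0.0194 and adjusted p = 0.297, but the gene had enough reads to be tested only through the post-KD libraries where it is high, so its call is not read as a result. With the donor as a block p was 0.280, with DESeq2 0.551 and without donor 3 0.199. Reads from *Txndc5*, which overlaps *Bmp6* on the other strand, can be told apart only if counting used strand.

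For the other 8 members in the frontal cortex the log2 fold changes lay between -0.51 for *Bmp4* and 0.22 for *Id3*, and the smallest unadjusted p was 0.370. Post-KD was lower for 8 of 10 donors in *Bmp4*, with medians of 12.4 and 8.39 CPM. *Id3* medians were 22.2 and 24.3 CPM, *Smad1* medians 26.6 and 29.8 CPM, and *Id4* medians 14.5 and 14.2 CPM. The intervals were narrower than in the hippocampus for each of these 8 members, for example -0.44 to 0.88 for *Id3*.

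**Figure D3:**
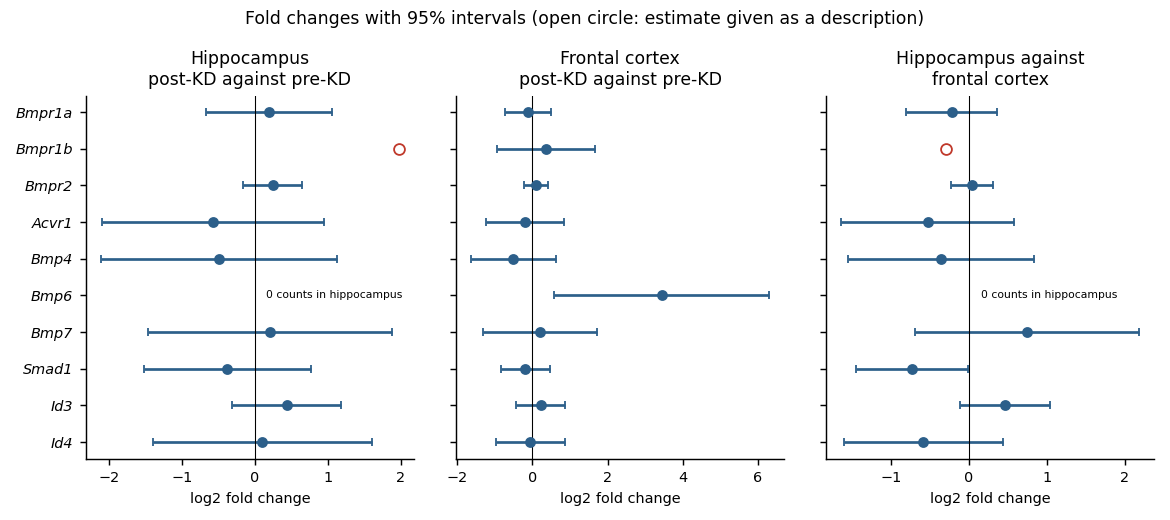
Log2 fold changes (horizontal axes, which differ between panels) with 95% intervals from edgeR for post-KD against pre-KD in each region (20 libraries each) and for hippocampus against frontal cortex (40 libraries). Open circles are *Bmpr1b* estimates given without an interval; the 8 other hippocampal intervals all include 0, and *Bmp6* is the only member whose cortical interval does not.

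The difference between regions in the post-KD change was estimated with a term for each of the 20 cohorts. Of 8 members other than *Bmpr1b* and *Bmp6*, 0 had an unadjusted p under 0.05, where 2.22% of 19422 genes did, and 0 an adjusted p under 0.05, where 0.0154% did (edgeR). The estimates lay between -0.27 for *Smad1* and 0.54 for *Bmpr1a* on the log2 scale. *Bmpr1b* had 1.93, given without a test because its hippocampal change chose it. Both *Bmp6* hippocampal groups were at 0, so its fitted value cannot be interpreted and is not given.

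Between the regions, with both conditions together, the member that stood out in the counts was *Bmp6*, with 0 hippocampal and 40 cortical reads, at least 12.3-fold higher in the cortex against a floor of 3 reads over the hippocampal libraries, and at least 3.74-fold without donor 3. Of the 40 reads 38 were post-KD, and the 2 pre-KD reads are below that floor, so no regional difference is shown for pre-KD cohorts alone. These reads came from 4 libraries, 28 of them from that of donor 3 and 9 from that of donor 9. *Bmp6* had enough reads to be tested between regions only through the cortical libraries where it is high, so this test is not read as a result. With cohort terms it gave p = 0.0666 (adjusted p = 0.526, edgeR). Without these terms the adjusted p was 0.0062, where 9.96% of all genes passed the threshold (range over all alternatives 0.0062 to 0.715). *Smad1* was lower in the hippocampus by 0.73 on the log2 scale (unadjusted p = 0.0483, adjusted p = 0.451, edgeR). It was the 1 of 9 members with an unadjusted p under 0.05, where 10.9% of 19422 genes had one, and the median of all genes in this fit was -0.17. At the adjusted threshold 0 of 9 passed, where 2.85% of genes did. The other 7 lay between -0.58 for *Id4* and 0.75 for *Bmp7*.

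The members were also compared with *Bmpr1b* library by library within conditions. Over 20 hippocampal libraries, with condition means removed from log2 CPM, Pearson's r with *Bmpr1b* lay between -0.42 for *Bmpr2* and 0.16 for *Id3* in 8 correlations, and Spearman's rho between -0.36 and 0.16, given without a test because hippocampal *Bmpr1b* values chose the gene. In the frontal cortex *Id3* had r = -0.61 (permutation within conditions, two-sided, p = 0.00724, adjusted over 26 correlations 0.188) and Spearman's rho = -0.58 (permutation p = 0.0120, adjusted 0.311), with r = -0.47 without the 2 libraries farthest from the *Bmpr1b* median. *Id3* was thus lower where *Bmpr1b* was higher in cortical libraries, by a correlation that failed the adjustment, and its hippocampal r of 0.16 had the other sign; the difference was not tested. Over the 10 donors' post-KD minus pre-KD differences in place of libraries, cortical *Id3* had r = -0.62 (permutation p = 0.0561) and rho = -0.72 (permutation p = 0.0230, adjusted 0.299), and cortical *Bmp7* had r = -0.64 (permutation p = 0.0439, adjusted 0.626) and rho = -0.66 (permutation p = 0.0445, adjusted 0.352). Hippocampal *Acvr1* had r = -0.59 and rho = -0.77, given without a test because the hippocampal *Bmpr1b* differences chose the gene.

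**Figure D4:**
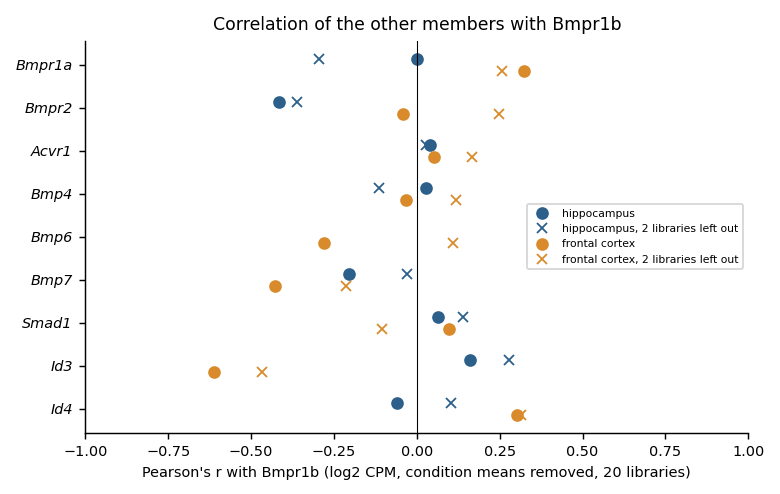
Pearson's r of each member with *Bmpr1b* (horizontal axis) over 20 libraries of a region, on log2 CPM with condition means removed. Circles use all libraries and crosses leave out the 2 farthest from the *Bmpr1b* median; cortical *Id3* is farthest from 0 at -0.61, and 0 of the 9 cortical correlations passed the adjustment.

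Hippocampus and frontal cortex of a cohort came from the same cohort of recipients, which allows the members to be compared across regions. *Bmpr1b* had r = -0.16 and Spearman's rho = -0.20 between regions over 20 cohorts, given without a test for the same reason. *Bmpr1a* had r = 0.50 (permutation p = 0.0229, adjusted 0.298) with rho = 0.37 (permutation p = 0.1103). *Bmpr2* had r = 0.42 (permutation p = 0.0722) and rho = 0.50 (permutation p = 0.0302, adjusted 0.392), with r = 0.71 without 2 cohorts. The other 6 lay between -0.23 and 0.08, and 0 of the 8 tested passed after adjustment over all 26 correlations.

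The rest of the pathway was described with 46 further genes, of which 37 had enough hippocampal reads and 38 enough frontal cortical reads to be tested. In the hippocampus 2 of 37, and 3 of 38 in the frontal cortex, had an unadjusted p under 0.05, all higher post-KD, against 4.57% and 5.01% of all genes in that direction, and 0 passed after adjustment (edgeR). The median log2 fold changes were 0.16 and 0.07, against -0.01 and 0.01 over all genes. The 17 inhibitors, among them noggin (*Nog*), chordin (*Chrd*) and *Smad7*, held 0 of these calls in either region. The 5 targets tested, among them *Id1*, *Id2* and *Hey1*, also held 0, as did the transducers *Smad4*, *Smad5* and *Smad9*.

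Most of these calls rested on single libraries, and *Bmp15*, *Hfe2* and hippocampal *Rgmb* had enough reads to be tested only through the post-KD libraries where they are high, so their calls are not read as results and cortical *Rgma* is the one left. *Bmp15*, an oocyte ligand, had 10 reads in 1 post-KD library of each region and 0 in all pre-KD libraries (hippocampus p = 0.00430, frontal cortex p = 0.00826, edgeR), at least 3.62-fold and 3.10-fold higher against 3 reads. *Hfe2*, a BMP co-receptor of liver and muscle, had 21 reads in 1 post-KD cortical library (p = 0.00321, edgeR, at least 6.52-fold). With the donor as a block these p values were 0.354, 0.361 and 0.282.

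The repulsive guidance molecules are membrane co-receptors of BMPs. *Rgmb* was read in 4 of 10 post-KD and 1 of 10 pre-KD hippocampal libraries, with 47 and 2 reads (p = 0.0134, adjusted p = 0.197, edgeR; with the donor as a block p = 0.135). *Rgma* was read in all 20 cortical libraries, with a mean of 30.6 ± 16.01 CPM in pre-KD cohorts and of 46.5 ± 16.2 CPM in post-KD cohorts (SD, n = 10). Its log2 fold change was 0.59 ± 0.29 (SE, p = 0.0474, adjusted p = 0.4997, edgeR), and p ranged up to 0.160 without donor 8.

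Between regions 8 of the 39 pathway genes tested had an unadjusted p under 0.05 and 4 an adjusted p under 0.05, against 10.9% and 2.85% of all genes (edgeR). The secreted inhibitor *Sostdc1* was higher in the hippocampus (log2 fold change 4.28, adjusted p = 2.03e-13), as was *Crim1*, a membrane protein that binds BMPs (0.67, adjusted p = 0.0106). The type II receptor *Acvr2b* (-1.52, adjusted p = 0.0279) and the target *Id2* (-0.42, adjusted p = 0.0123) were lower in the hippocampus. The call was lost without donor 2, 3, 4, 5 or 9 for *Acvr2b*, without donor 2, 3 or 4 for *Id2* and without donor 2 for *Crim1*. *Sostdc1* is also a gene of the choroid plexus, whose 9 other markers summed to 703.8 to 5530 CPM in hippocampal and 131.4 to 880.1 CPM in cortical libraries, with 5 of 9 higher in the hippocampus at adjusted p under 0.05 and none at 0; their part in the *Sostdc1* difference was not tested.

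The genes with the pattern most like that of *Bmpr1b* are named as a description. Over 20 hippocampal libraries and 10359 genes averaging at least 10 reads, the highest Spearman's rho of log2 CPM with *Bmpr1b* belonged to *Ercc1* (0.79), *Gm43760* (0.77), *Shank3* (0.77), *Hspbp1* (0.76) and *Fam136a* (0.75). In the frontal cortex the same genes had rho of -0.18, -0.61, 0.13, -0.02 and 0.29. Among the members *Id3* ranked highest in the hippocampus, at 1303 of 10359 (0.28), and *Id4* lowest, at 9174 (-0.28). These ranks have no test, since they use the hippocampal *Bmpr1b* values that chose the gene, across conditions.

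The libraries were checked against markers of their region and of neighbouring tissue. Hippocampal markers summed to 980.0 to 1817 CPM in the hippocampus and 662.7 to 1036 CPM in the frontal cortex, with 6 of 10 higher in the hippocampus at adjusted p under 0.05 (edgeR). Frontal cortical markers summed to 1254 to 1689 CPM in the frontal cortex and 497.5 to 1367 CPM in the hippocampus, ranges that overlap, with 4 of 9 higher in the cortex and 1 of 9 higher in the hippocampus. In the cortex 7 striatal markers summed to 500.2 to 1103 CPM, against 33.0 to 294.8 CPM in the hippocampus. Between post-KD and pre-KD hippocampus an unadjusted p under 0.05 was reached by 2 of 7 markers of oligodendrocyte precursors (summed median 182.3 against 222.8 CPM), 2 of 10 of the hippocampus, 1 of 6 of oligodendrocytes, 1 of 6 of the striatum, and 0 of 8 of astrocytes, 0 of 10 of the choroid plexus, 0 of 8 of the meninges, 0 of 7 of endothelium and 0 of 9 of the frontal cortex (edgeR), against 10.1% of all genes. Between post-KD and pre-KD frontal cortex, 2 of 6 striatal markers reached it (summed median 958.9 post-KD against 896.0 CPM pre-KD) and 0 of the other lists, against 9.68% of all genes. Their part in the *Bmpr1b* difference was not tested. Although the methods name female mice, 5 to 7 of 10 libraries per group held reads of 4 Y-linked genes and 2 or 3 of 10 held at least 10, up to 276. With the mean Y-linked level as a covariate the *Bmpr1b* log2 fold change in the hippocampus was 1.98, a description from the values that chose the gene. The part of sex in the *Bmpr1b* difference was not tested.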

How the data were processed

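RNA-seq was measured in 40 libraries pooled from 6 mice each. The authors deposited 1 table per region of unnormalized read counts for 47643 Ensembl genes, made per the methods by trimming with bbduk, checking with FastQC 0.11.5, aligning to mm10 with STAR 2.5.2a, handling with SAMtools 1.3 and counting with HTSeq 0.6.0. The methods name a TruSeq kit and the key resources table a QuantSeq FWD kit, so levels were not compared between genes. Of the IDs, 47224 were matched to GENCODE M21, and 0 pairs of libraries were identical.

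Genes with at least 10 counts summed over a fit were tested with edgeR 4.0.16 (R 4.3.3, quasi-likelihood, TMM) on all genes, with Benjamini-Hochberg adjustment and a threshold of 0.05, between conditions in each region and between regions with 20 cohort terms. Log2 CPM used a prior count of 2 and correlations 100000 permutations (scipy 1.17.1, numpy 2.4.6, pandas 2.3.3, Python 3.11.15; matplotlib 3.10.9). Counting intervals and limits are exact at 95% and cover counting error only. The floor is 3 counts, and a ratio to it does not cover the counting error of the reads above it. Promoters came from RefSeq.

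The members and lists were chosen with earlier results of these data known. Named were all members, pathway genes with the smallest p per region (up to 5 with p under 0.05, and every gene with an adjusted p under 0.05), and the 5 genes most like *Bmpr1b*. Donors pair the cohorts by design, since pre-KD and post-KD stool came from the same donor. Over genes averaging at least 20 counts, with condition means removed, the correlation of a donor's pre-KD and post-KD libraries lay between -0.03 and 0.03 in the hippocampus (8016 genes) and between -0.06 and 0.03 in the frontal cortex (8255 genes), and 0 of 10 pairs were above 0.1 in either. The test without a block was kept.

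Alternatives were DESeq2 1.42.0, RLE size factors, no filter, edgeR's filterByExpr, the donor as a block, a Y-linked covariate, leaving out each donor and a prior count of 0.5. The procedure was tested on simulated data.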

Additional observations from a re-analysis of the deposited data

Results flagged for a closer look

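The highest library stood apart by Dixon's test in 5 of 38 sets of 10 libraries (a member in a region and condition). For normally distributed values, chance flags about 1 in 20 sets, a rate that does not hold for skewed values or for counts with many zeros. *Acvr1* in pre-KD hippocampus stood at 83.7 CPM for donor 5 (next 17.4), and *Bmp4* in pre-KD hippocampus at 48.1 CPM for donor 7 (next 19.04). *Bmp6* in post-KD frontal cortex stood at 15.1 CPM for donor 3 (next 5.35). In pre-KD frontal cortex *Bmp6* was at 0 in 9 of 10 libraries, so the 1.26 CPM for donor 7 had to stand apart. *Bmpr1b* in pre-KD hippocampus stood at 15.3 CPM for donor 8 (next 5.73), among the values that chose the gene.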

How the results depend on the processing

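Numbers of members at the adjusted threshold were 0 in both regions under every alternative run, including the donor as a block (0). Between regions 1 member (*Bmp6*) reached it without the cohort terms. *Bmp6* entered that fit only through the cortical libraries where it is high, so this call is not read as a result. The fits with DESeq2, RLE size factors and filterByExpr gave 0 between regions. At the unadjusted threshold, leaving out 1 donor gave 0 to 1 member in the hippocampus (*Bmpr1b*, given without a test, is not counted there), 0 to 1 in the frontal cortex and 0 to 1 between regions. The cortical 1 (*Bmp6*) became 0 with filterByExpr (where it was not tested), with DESeq2 and with the replicate block in edgeR or DESeq2, and without donor 3 or 9. Between regions the number was 0 with RLE size factors, 2 with DESeq2 and 3 without the replicate block, and *Smad1* lost its call without donor 1, 3, 4, 7, 8 or 10. Of the pathway list, no gene filter put 1 gene (*Bmp15*) at the adjusted threshold in the hippocampus, where 6.16% of 20964 genes then passed it. Its unadjusted number there was 0 with filterByExpr, 1 with the block in edgeR or DESeq2 and 1 with the Y-linked covariate, and 2 to 3 without 1 donor. In the frontal cortex it was 6 without a filter, 0 with filterByExpr, 1 with the block in edgeR, 1 with the Y-linked covariate and 1 to 4 without 1 donor, the lowest without donor 2 or 9. The cause was not tested. The correlations tested also failed the adjustment with a prior count of 0.5 and with donor differences.

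Signs of small estimates turned. *Id4* in the hippocampus was -0.22 with the replicate block in edgeR, -0.20 in DESeq2 and -0.078 with the Y-linked covariate, *Acvr1* in the frontal cortex was 0.032 and 0.022 with the block, the difference between regions in the post-KD change of *Bmp7* was 0.015 without the block, and *Hfe2* had a DESeq2 estimate of 0. Without 1 donor the log2 fold changes ranged in the hippocampus from -0.98 to 0.18 for *Acvr1*, -0.84 to 0.14 for *Bmp4*, -0.083 to 0.68 for *Bmp7* and -0.26 to 0.35 for *Id4*. In the frontal cortex they ranged from -0.31 to 0.035 for *Bmpr1a*, -0.027 to 0.81 for *Bmpr1b*, -6.06e-05 to 0.18 for *Bmpr2*, -0.38 to 0.028 for *Acvr1*, -0.063 to 0.54 for *Bmp7* and -0.14 to 0.022 for *Id4*. Between regions they ranged from -0.55 to 0.10 for *Bmpr1b*, -0.033 to 0.080 for *Bmpr2* and -0.60 to 0.012 for *Bmp4*. For the difference between regions in the change they ranged from -0.66 to 0.43 for *Acvr1*, -0.28 to 0.53 for *Bmp4*, -0.51 to 0.53 for *Bmp7*, -0.62 to 0.064 for *Smad1*, -0.0042 to 0.63 for *Id3* and -0.55 to 0.47 for *Id4*.

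Members with few reads limit what the libraries can show: the 95% interval of *Bmp4* or *Bmp7* in the hippocampus spans more than a log2 unit on either side. P values measure the spread between pools, not between mice.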
